A study of Homo sapiens with 24 samples.

Results

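Matrix metalloproteinases (MMPs) and tissue inhibitors of metalloproteinases (TIMPs) were followed after depletion of IGF2BP1 in 4 human cancer cell lines. The members were 7 proteases, MMP1, MMP2, MMP3, MMP7, MMP10, MMP14 and MMP15, and 3 inhibitors, TIMP1, TIMP2 and TIMP3, taken by gene symbol from tables of 58174 genes. All 10 symbols were listed for each line, and 9 of the 10 had at least 1 read in each line: MMP3 had none in A549 and PANC1, and MMP7 none in ES2 and MV3. Total RNA, freed of ribosomal RNA, was sequenced from A549 (lung adenocarcinoma), ES2 (ovarian clear cell adenocarcinoma), MV3 (amelanotic melanoma) and PANC1 (pancreatic ductal adenocarcinoma), each an established line grown in DMEM with fetal serum. In each line 3 libraries came from cells with a control siRNA (siC) and 3 from cells given an siRNA pool that targets IGF2BP1 (siI1), harvested 72 h after transfection in A549, ES2 and MV3 and 96 h in PANC1. No untransfected cells were analysed here, so siC, which shares the transfection, was the reference throughout.

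MMPs are zinc-dependent endopeptidases that are made as inactive precursors and together can cleave most proteins of the extracellular matrix. MMP1 is the interstitial collagenase, MMP3 and MMP10 are the stromelysins, MMP2 is gelatinase A and MMP7 is matrilysin. These are secreted, whereas MMP14 and MMP15 are held in the plasma membrane. The TIMPs bind the active site of MMPs and block them, and TIMP2 has a further role: bound to MMP14, it forms the receptor from which the MMP2 precursor is taken for activation. In tumour cells this system is known for matrix breakdown, release of growth factors and invasion. The values below are RNA levels and say nothing of precursor activation or enzyme activity.

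MMP7, MMP10, MMP1 and MMP3 lay close together on chromosome 11. In hg38 coordinates of GENCODE release 44, MMP7 (ENSG00000137673) spanned 102520508 to 102530750, MMP10 (ENSG00000166670) 102770502 to 102780628, MMP1 (ENSG00000196611) 102789401 to 102798160 and MMP3 (ENSG00000149968) 102835801 to 102843609, all on the minus strand. This stretch of 323.1 kb held 7 MMP genes, and 4 of them were members. MMP2 (ENSG00000087245, 55389700 to 55506691) and MMP15 (ENSG00000102996, 58025754 to 58046901) were on the plus strand of chromosome 16, and MMP14 (ENSG00000157227, 22836560 to 22849041) on the plus strand of chromosome 14. TIMP1 (ENSG00000102265, chromosome X, 47582408 to 47586789, plus strand) lay within SYN1 and TIMP3 (ENSG00000100234, chromosome 22, 32801705 to 32863041, plus strand) within SYN3, each on the opposite strand and without a shared exon base. TIMP2 (ENSG00000035862, chromosome 17, 78852977 to 78925387, minus strand) shared 224 exon bases with CEP295NL on the same strand and 367 with the lncRNA ENSG00000267601 on the opposite strand. MMP2 shared 174 exon bases with ENSG00000279030 on the same strand. MMP1 shared 223 and MMP3 32 exon bases with the pseudogene WTAPP1 on the opposite strand, and the strand setting of the counting was not given in the sources used here.

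Promoter sequence (RefSeq, GRCh38.p14, from 250 bases before to 50 bases after the start) was at hand for 6 of the 10 members: MMP7, MMP10, MMP14, MMP15, TIMP1 and TIMP3. The windows below show, 5′ to 3′ on the strand of the gene, the contrast between MMP7 and MMP10, whose promoters held a match to the AP-1 core TGANTCA, and MMP14, whose promoter held none. Capitals mark the match to TGANTCA, or to the GC box core GGGCGG in MMP14.
MMP7, chr11:102530796-102530825, minus strand: aaacactcaaaTGAGTCAcctatttccaca
MMP10, chr11:102780677-102780706, minus strand: aaacacatgcaTGAATCAtactgttggtga
MMP14, chr14:22836508-22836537, plus strand: ggagggcactgGGGCGGggacggaggagag
The AP-1 match began 67 bases before the start in both MMP7 and MMP10, and the GC box in MMP14 began 66 bases before it. TGANTCA, which reads the same on both strands, was found in 7.71% of 35116 promoters of this length, and none of the other 4 promoters of members held it. TATAAA, searched on both strands, was found in MMP7 and MMP10 and in 11.5% of all promoters. GGGCGG, searched on both strands, was found in MMP14, MMP15, TIMP1 and TIMP3, not in MMP7 or MMP10, and in 45.0% of all promoters. The letters searched did not overlap one another, and a match is a description of sequence only.

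Levels are in FPKM, fragments per kilobase of the gene, scaled to the size of the library. MV3 libraries held 15572492 to 20082702 reads assigned to genes and A549 libraries 3105215 to 4553326, with 6421764 to 8472851 in ES2 and PANC1, so that a given FPKM rested on the fewest reads in A549. IGF2BP1 was lower in siI1 than in siC in every line, and its log2 fold change lay between -1.83 (PANC1) and -1.32 (A549). Defining markers of the labelled tissue were largely missing in MV3, A549 and ES2. In the siC libraries of MV3, SOX10, TYR and S100B had no read and MLANA was at 0.0069 FPKM on average, and in A549 the lung markers NKX2-1, SFTPB and SFTPC had none. In ES2, MUC16 had no read, and of the epithelial genes EPCAM, CDH1 and KRT19 had none, while KRT18 was at 44.4 FPKM and KRT8 at 9.01 FPKM. PANC1 carried KRT19 at 616.8 FPKM, and of its pancreatic markers SOX9 was at 18.2 FPKM, below the 22.5 FPKM of ES2, KRT7 at 2.88, PDX1 at 1.7 and GATA6 at 0.0597 FPKM. In bulk RNA, fewer cells that make a transcript and less of it in each cell cannot be told apart.

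In MMP1 the control library PANC1 siC 2 stood apart, with 9.72 FPKM against at most 0.4 FPKM in the other PANC1 libraries. Among genes with at least 100 FPKM in ES2 siC and under 1 FPKM in each of the other 5 PANC1 libraries, 10 besides MMP1 could be examined. Of these 10, 9 were higher in PANC1 siC 2 than in any other PANC1 library. PANC1 siC 2 itself had no upper limit, so genes at 1 FPKM or more there were bound to count as higher. These were SERPINB2 (1.33 FPKM), HIST1H3F (1.72 FPKM) and SPANXB1 (1.25 FPKM). The same count, made for each of the other 5 PANC1 libraries, was 0 of 7, but it is no separate control. Its genes had to be under 1 FPKM in PANC1 siC 2, and those already highest there could not be highest elsewhere. The 10 genes had a median of 0.289% of their ES2 siC level in PANC1 siC 2, and MMP1 had 0.241% of its own. SERPINB2, for example, had 1.33 FPKM there, at most 0.0605 FPKM in the other PANC1 libraries and 429.6 FPKM in ES2 siC. At 0.289% of their ES2 level, MMP14 would have had 0.115 of its 5.08 FPKM in PANC1 siC 2, MMP2 0.033 of its 9.93 FPKM and TIMP2 0.0266 of its 2.73 FPKM. These genes were chosen after the values had been seen, and their part in the PANC1 results was not tested.

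**Figure D1:**
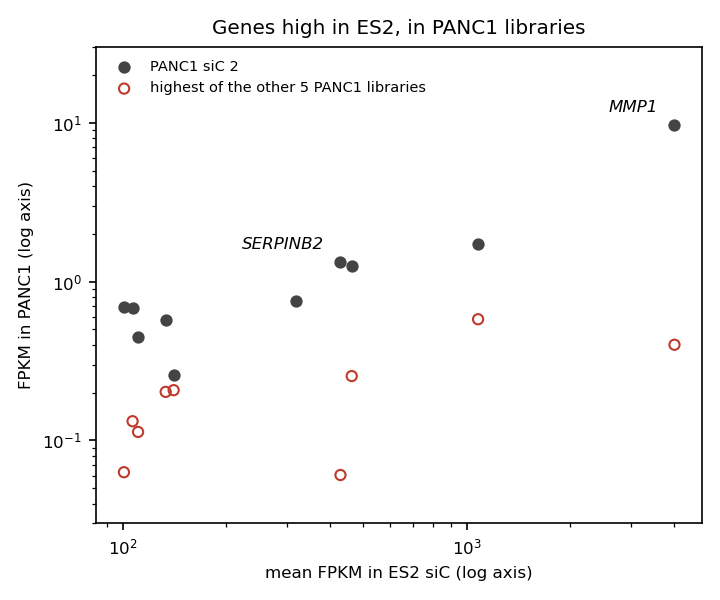
Each point is a gene with at least 100 FPKM in ES2 siC and under 1 FPKM in the other 5 PANC1 libraries, with its mean level in ES2 siC on the horizontal axis and its FPKM in PANC1 on the vertical axis, both logarithmic. Filled points give PANC1 siC 2, for which no upper limit was set, and open points the highest of the other 5 PANC1 libraries. Values of 0 are not drawn. MMP1 stood at 9.72 FPKM in PANC1 siC 2 and at no more than 0.4 FPKM in the others, and the other genes drawn were also higher in PANC1 siC 2.

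The test, limma at an adjusted p under 0.05, took in genes that averaged 0.5 FPKM or more in a line (n = 6 libraries). In ES2, 7 of the 10 members were tested: MMP1, MMP3 and MMP14 fell and MMP2 and TIMP2 rose, while over all genes tested in ES2 23.5% were called, 13.0% as lower and 10.5% as higher. In MV3, 7 were tested, MMP1, MMP3 and MMP14 fell and TIMP2 rose, against 35.7% called over all genes, 19.5% as lower and 16.3% as higher. In PANC1, 6 were tested, MMP14 fell and MMP2 and TIMP2 rose, against 24.8% called over all genes, 13.4% as lower and 11.3% as higher. In A549, 4 were tested and only MMP7 passed, as lower, against 13.8% called over all genes, 7.83% as lower and 5.93% as higher. The median log2 fold change of the tested members was 0.04 in MV3 (0.01 over all genes), -0.01 in PANC1 (-0.04), -0.20 in ES2 (-0.02) and -0.25 in A549 (-0.01). Members below 0.5 FPKM are given by their levels, with no test.

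In PANC1 the directions of some members changed when libraries were scaled to the same sum. Centring libraries on their medians, or voom on recovered reads, kept MMP2 and TIMP2 higher and MMP14 lower, all past the threshold. The FPKM of a PANC1 library summed to 526337 to 756438 in siC and to 977547 to 1191707 in siI1. Setting these sums equal therefore lowers siI1 values relative to siC. Which scaling is nearer to the RNA content of the cells was not tested. When all PANC1 libraries were rescaled to the same sum, the median log2 fold change of all genes moved to -0.69. The share of all genes called went from 24.8% to 56.5%, and the share of lower genes among them from 54.3% to 98.9%. Of the members, 2 were lower and 0 higher. The rises of MMP2 and TIMP2 in PANC1 then became log2 fold changes of -0.18 and -0.04, both above the shifted median and neither past the threshold, and TIMP1 went from 0.25 to -0.49. In ES2 the same rescaling moved the share of lower genes among those called from 55.4% to 44.5%, and the 5 members kept their calls. In A549 and MV3 it moved the median of all genes by less than 0.1.

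**Figure D2:**
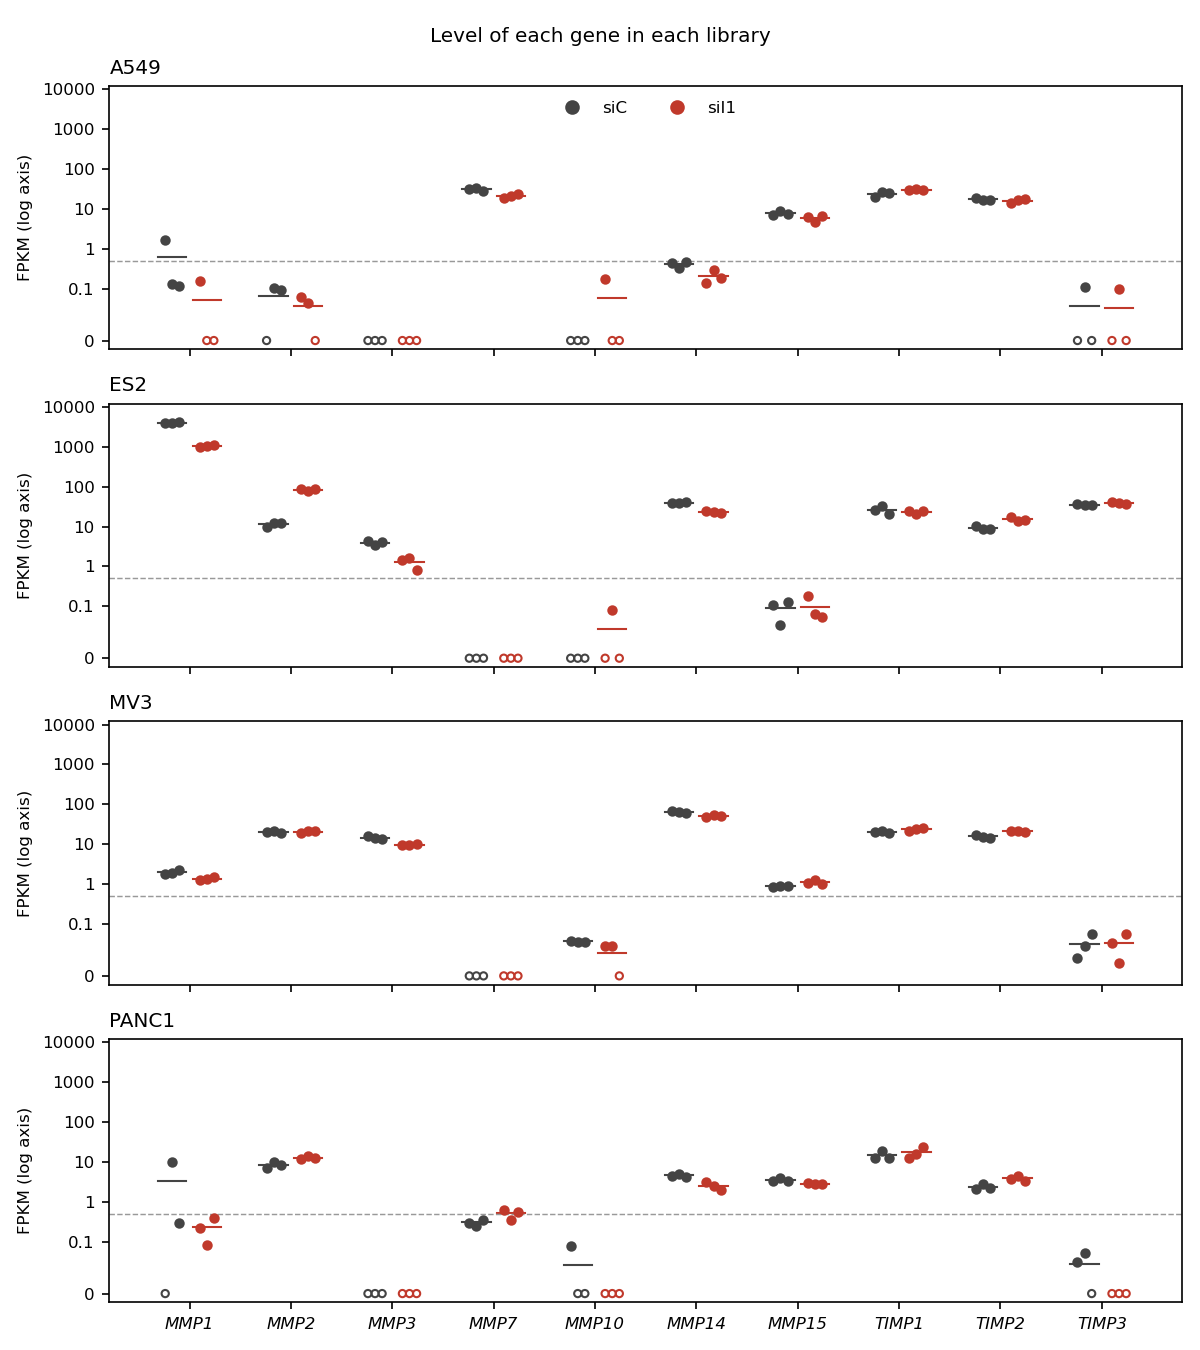
FPKM of each member in each library, on a logarithmic axis, with 1 panel per line, gray points for siC, red points for siI1 and a short bar for the group mean (n = 3). Open points at the bottom are libraries listed at 0, and the dashed line marks the mean of 0.5 FPKM needed for a test. MMP1 in ES2 lay at 4026 FPKM on average in siC and at 1032 FPKM in siI1, above every other member, and the single high MMP1 point in PANC1 is siC 2.

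MMP1, the collagenase that opens fibrillar collagen, was the most abundant member by far, and this was in ES2. The ES2 siC libraries had 3930, 3969 and 4179 FPKM and the siI1 libraries 984, 1033 and 1079 FPKM. The groups did not overlap, and the mean of 4026 ± 134.1 FPKM fell to 1032 ± 47.7 (SD, n = 3 each). The log2 fold change was -1.96 ± 0.06 (SE, limma adjusted p 6.23e-05). Ordered by mean FPKM, MMP1 ranked 1 among the protein-coding genes of ES2 siC and 6 in siI1. It took 0.785% ± 0.0304 of all reads assigned to genes in ES2 siC and 0.206% ± 0.00945 in siI1 (SD, n = 3 each).

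In MV3, MMP1 was far lower in FPKM and also fell. Its siC libraries had 1.75, 1.91 and 2.22 FPKM and its siI1 libraries 1.26, 1.33 and 1.53 FPKM, without overlap. The log2 fold change was -0.39 ± 0.11 (SE, limma adjusted p 0.0335), and the call was lost in 6 of 14 other settings, among them those without MV3 siC replicate 2 (adjusted p 0.0819), siC replicate 3 (0.0794), siI1 replicate 1 (0.0951) and siI1 replicate 2 (0.0925). In PANC1 the siC libraries had 0, 9.72 and 0.302 FPKM and the siI1 libraries 0.223, 0.0844 and 0.400 FPKM. MMP1 was tested in PANC1 through siC 2 alone, with a log2 fold change of -1.14 ± 1.10 (SE, limma adjusted p 0.494), and without that library it was below the minimum. A549 had 1.62, 0.128 and 0.116 FPKM in siC and 0.158, 0 and 0 FPKM in siI1, from 13 reads at most. The high library there, siC 1, was also the highest of the A549 libraries for 4 of 9 other genes of the kind examined in PANC1 siC 2. The count was 0 or 1 of 9 for each other A549 library. As in PANC1, the library examined had no upper limit and the others did, so these counts are a description only, and no cause was tested.

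MMP3, or stromelysin 1, which cleaves proteoglycans and laminin and can activate other MMP precursors, was found in MV3 and ES2. In ES2 it had 4.26, 3.42 and 4.13 FPKM in siC and 1.41, 1.63 and 0.809 FPKM in siI1. In MV3 it had 15.6, 14.1 and 13.3 FPKM in siC and 9.60, 9.54 and 9.97 FPKM in siI1. The groups were separate in both lines, and MMP3 fell by 1.34 ± 0.20 on the log2 scale in ES2 (SE, limma adjusted p 0.00567) and by 0.54 ± 0.06 in MV3 (adjusted p 0.00128). A549 and PANC1 had no MMP3 read, where 3 reads would have been 0.322 to 0.455 FPKM in A549 and 0.172 to 0.244 FPKM in PANC1, a limit that covers counting error only.

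MMP10, or stromelysin 2, had at most 1 read in any library and was tested in no line. Its highest value was 0.177 FPKM, in A549 siI1 1, from 1 read. MV3, the most deeply sequenced line, had 0.0367 FPKM in siC and 0.0188 FPKM in siI1 on average. MMP10 and MMP3 thus stood far apart in FPKM in MV3, and both lie in the same stretch of chromosome 11.

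MMP2, gelatinase A, which cleaves denatured collagens and type IV collagen, gave the largest change of any member tested. In ES2 the siC libraries had 9.72, 12.3 and 12.2 FPKM and the siI1 libraries 87.9, 79.1 and 85.3 FPKM. All siI1 libraries lay far above all siC libraries, with a log2 fold change of 2.83 ± 0.10 (SE, limma adjusted p 7.09e-05), or a 7.13-fold rise on the log2(FPKM + 0.5) scale. Its rank by mean FPKM among protein-coding genes of ES2 went from 3702 in siC to 372 in siI1.

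In the other lines MMP2 moved less. PANC1 had 7.15, 9.93 and 8.59 FPKM in siC and 11.5, 13.8 and 12.6 FPKM in siI1, which did not overlap, and the log2 fold change was 0.55 ± 0.13 (SE, limma adjusted p 0.0248). Without PANC1 siC 2 it was 0.65 (adjusted p 0.0152), and the call was lost without PANC1 siC replicate 1 (adjusted p 0.0582), siC replicate 3 (0.0648), siI1 replicate 2 (0.0793) or siI1 replicate 3 (0.0687). MV3 had 20.0, 21.7 and 18.8 FPKM in siC and 19.4, 21.0 and 21.9 FPKM in siI1, which overlapped, with a log2 fold change of 0.04 ± 0.07 (SE, limma adjusted p 0.683). In A549 MMP2 stayed at or under 0.102 FPKM in each library. The siC levels of ES2 and PANC1 overlapped, so that these lines started from a like FPKM as far as separately normalised tables can be set side by side, and MV3 siC was above both.

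MMP7, matrilysin, a short MMP without the hemopexin domain, was found mainly in A549. Its siC libraries had 31.9, 33.0 and 28.4 FPKM and its siI1 libraries 19.1, 21.5 and 23.2 FPKM. The groups did not overlap and MMP7 fell by 0.54 ± 0.09 on the log2 scale (SE, limma adjusted p 0.0147). That call was lost without A549 siC replicate 1 (adjusted p 0.0583) and without A549 siI1 replicate 2 (adjusted p 0.0508), with log2 fold changes from -0.60 to -0.47 over all settings. PANC1 had 0.299, 0.253 and 0.359 FPKM in siC and 0.630, 0.358 and 0.542 FPKM in siI1, which overlapped and were below the minimum. ES2 and MV3 had no MMP7 read, where 3 reads would have been 0.153 to 0.201 FPKM in ES2 and 0.0637 to 0.0858 FPKM in MV3.

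MMP14, the membrane-bound MMP that activates the MMP2 precursor, fell in each of the 3 lines in which it was tested. ES2 had 38.9, 40.0 and 40.1 FPKM in siC and 24.8, 23.5 and 22.3 FPKM in siI1, a log2 fold change of -0.74 ± 0.05 (SE, limma adjusted p 0.000379). MV3, with the highest levels, had 67.3, 65.0 and 61.4 FPKM in siC and 48.4, 54.7 and 51.9 FPKM in siI1, a log2 fold change of -0.32 ± 0.06 (SE, limma adjusted p 0.00576). PANC1 had 4.48, 5.08 and 4.27 FPKM in siC and 3.15, 2.42 and 1.94 FPKM in siI1, a log2 fold change of -0.78 ± 0.16 (SE, limma adjusted p 0.0161). In each of these 3 lines every siI1 library was below every siC library.

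The PANC1 call for MMP14 was lost without PANC1 siC replicate 1 (adjusted p 0.0537) and without PANC1 siI1 replicate 2 (adjusted p 0.052), and it held in the other 12 settings. Without PANC1 siC 2 the log2 fold change was -0.72 (adjusted p 0.0447). A549 had too little MMP14 to test, with 0.439, 0.338 and 0.460 FPKM in siC and 0.139, 0.296 and 0.190 FPKM in siI1, from 2 to 9 reads, again without overlap.

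MMP15, the second membrane-bound member, passed the threshold in none of the lines. A549 had the highest FPKM, 6.94, 8.59 and 7.64 in siC and 6.40, 4.63 and 6.71 in siI1, with a log2 fold change of -0.37 ± 0.16 (SE, limma adjusted p 0.19). PANC1 had 3.36, 3.99 and 3.29 FPKM in siC and 2.98, 2.86 and 2.71 FPKM in siI1, with a log2 fold change of -0.27 ± 0.10 (SE, limma adjusted p 0.1). MV3 had 0.842, 0.881 and 0.902 FPKM in siC and 1.05, 1.25 and 1.03 FPKM in siI1, with a log2 fold change of 0.22 ± 0.12 (SE, limma adjusted p 0.182). The groups were separate in all 3 lines, with siI1 lower in A549 and PANC1 and higher in MV3. How often groups are separate over all genes was not counted. A missing call does not show that levels were equal. ES2 had 0.0345 to 0.179 FPKM.

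TIMP2, the inhibitor that also serves MMP2 activation, rose in the 3 lines in which MMP14 fell. ES2 had 10.4, 8.58 and 8.69 FPKM in siC and 17.2, 13.5 and 14.5 FPKM in siI1, a log2 fold change of 0.68 ± 0.11 (SE, limma adjusted p 0.00815). MV3 had 16.8, 15.5 and 14.7 FPKM in siC and 21.4, 22.0 and 19.9 FPKM in siI1, a log2 fold change of 0.42 ± 0.06 (SE, limma adjusted p 0.00281). PANC1 had 2.12, 2.73 and 2.24 FPKM in siC and 3.79, 4.49 and 3.38 FPKM in siI1, a log2 fold change of 0.61 ± 0.13 (SE, limma adjusted p 0.0202), with the sign reversed under the same-sum scaling as given above. The siI1 libraries were above all siC libraries in these 3 lines. Without PANC1 siC 2 the log2 fold change in PANC1 was 0.70 (adjusted p 0.0203), and the call was lost without PANC1 siC replicate 1 (adjusted p 0.0712), siC replicate 3 (0.0615), siI1 replicate 1 (0.0597) or siI1 replicate 2 (0.0597).

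In A549 the TIMP2 libraries overlapped, with 18.7, 16.7 and 17.0 FPKM in siC and 14.2, 16.7 and 17.4 FPKM in siI1, and a log2 fold change of -0.12 ± 0.09 (SE, limma adjusted p 0.473). CEP295NL, which shares exon bases with TIMP2 on its strand, could have contributed reads to these values.

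TIMP1, a broad MMP inhibitor that acts weakly on the membrane-bound MMPs, passed the threshold in none of the lines. A549 had 20.0, 26.9 and 24.4 FPKM in siC and 29.2, 31.5 and 30.2 FPKM in siI1, groups that did not overlap, and a log2 fold change of 0.35 ± 0.11 (SE, limma adjusted p 0.0892). MV3 had a log2 fold change of 0.22 ± 0.07 (SE, limma adjusted p 0.0567), with 18.8 to 21.3 FPKM in siC and 21.3 to 25.0 FPKM in siI1, and it passed in 4 of 14 other settings. The libraries of ES2 and PANC1 overlapped, with log2 fold changes of -0.20 ± 0.16 and 0.25 ± 0.26 (SE, limma adjusted p 0.423 and 0.533).

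TIMP3, the inhibitor that is held in the matrix and also blocks ADAM17, was found in ES2. Its siC libraries had 36.9, 34.7 and 35.0 FPKM and its siI1 libraries 41.9, 38.5 and 37.6 FPKM. All siI1 libraries were higher, but the log2 fold change of 0.14 ± 0.06 (SE, limma adjusted p 0.114) did not pass the threshold. In the other lines TIMP3 stayed at or under 0.109 FPKM in each library.

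**Figure D3:**
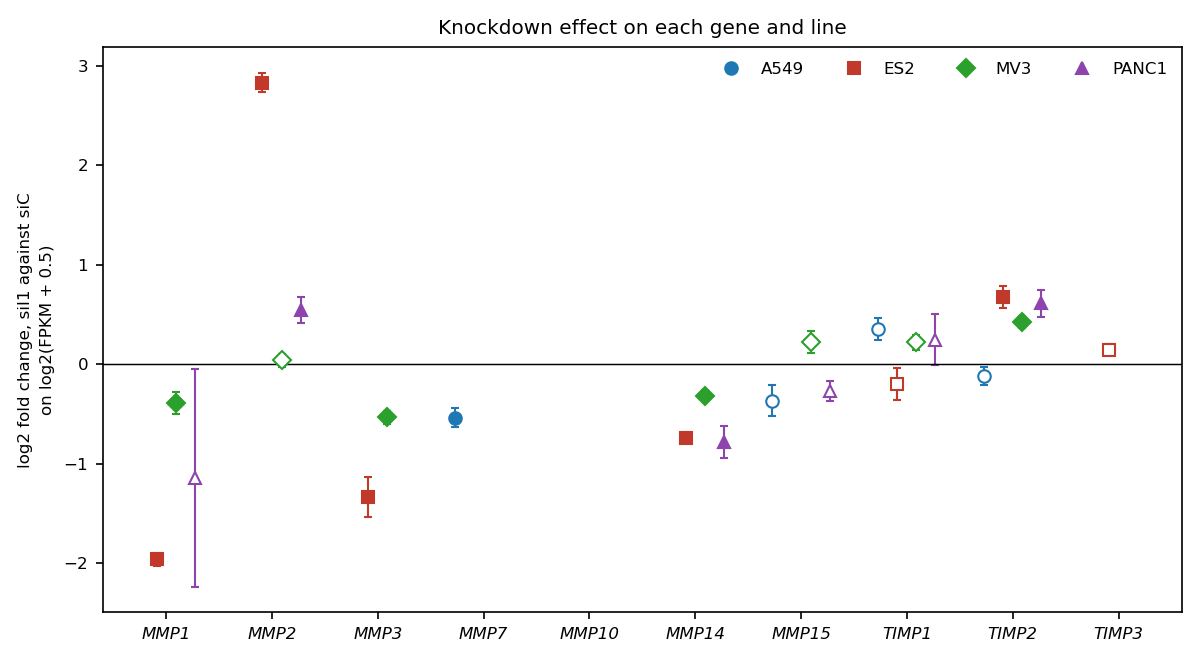
Log2 fold change of each member, siI1 against siC, on log2(FPKM + 0.5), with its standard error from limma (n = 3 per group). Filled symbols passed an adjusted p of 0.05, open symbols did not, and a line is missing where the mean was below 0.5 FPKM. MMP2 in ES2 stood at 2.83, MMP14 was filled below 0 and TIMP2 filled above 0 in ES2, MV3 and PANC1, and the rises of MMP2 and TIMP2 in PANC1 fell to -0.18 and -0.04 when libraries were scaled to the same sum.

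The levels in siC had an order over the lines for each gene. MMP14 went from MV3 over ES2 to PANC1, MMP15 from A549 over PANC1 to MV3 and MMP3 from MV3 to ES2, with no overlap of libraries between neighbours. TIMP2 in A549 and MV3 overlapped, and both were above ES2, which was above PANC1. TIMP1 differed least: its means in siC were 26.6 FPKM in ES2, 23.8 in A549, 20.0 in MV3 and 14.5 in PANC1, and each neighbour in this order overlapped the next, with A549 ahead of ES2 under the same-sum scaling. Because each table was normalised on its own, these orders are descriptions of levels, with no test.

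The ratio of 2 genes within a library needs no scaling between libraries, and that of MMP14 to TIMP2 was lower in siI1 in ES2, MV3 and PANC1. The ratio of MMP14 to TIMP2 in FPKM was 4.34 ± 0.517 in ES2 siC and 1.57 ± 0.153 in siI1, 4.13 ± 0.104 and 2.45 ± 0.178 in MV3, and 1.96 ± 0.134 and 0.648 ± 0.159 in PANC1 (SD, n = 3 each). In each of these lines the lowest siC ratio was above the highest siI1 ratio. A lower ratio does not show opposite movement: under the same-sum scaling in PANC1 the log2 fold changes were -1.47 for MMP14 and -0.04 for TIMP2. The ratio of MMP2 to TIMP2 went the other way in ES2, from 1.26 ± 0.281 to 5.62 ± 0.445 (SD, n = 3 each). In MV3 it was lower in siI1, at 1.29 ± 0.105 in siC and 0.987 ± 0.101 in siI1, without overlap of libraries. In PANC1 it was 3.61 ± 0.235 in siC and 3.28 ± 0.396 in siI1, and the libraries overlapped. The summed FPKM of the 7 proteases in ES2 was 4081 in siC and 1141 in siI1, but without MMP1 it was 55.1 and 109.0, beside 71.4 and 77.3 for the 3 inhibitors. These ratios were not tested, and their parts are the changes already given.

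Whether the effect of depletion differed between lines was tested with limma interaction terms. Over the 4 lines together this was possible for TIMP1 and TIMP2, which passed the minimum in each: TIMP2 differed (F test adjusted p 0.00127) and TIMP1 was not shown to differ (adjusted p 0.303, or 0.029 under the same-sum scaling), while 45.0% of all genes tested differed. Pairs of lines were compared for members that passed the minimum in both, a choice made after the values had been seen. TIMP2 rose more than in A549 by 0.80 ± 0.15 in ES2 (SE of the log2 difference, limma adjusted p 0.0068), by 0.54 ± 0.11 in MV3 (adjusted p 0.00959) and by 0.73 ± 0.16 in PANC1 (adjusted p 0.0144). The PANC1 difference was lost without siC replicate 1 or 3 or siI1 replicate 1 or 2, with adjusted p up to 0.0843, and was 0.12 under the same-sum scaling. Over all genes 14.0%, 16.9% and 14.9% differed in these comparisons, which share the A549 libraries.

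ES2 and MV3 differed for MMP1, MMP2, MMP3 and MMP14, while 14.3% of all genes did. MMP1 fell less in MV3 by 1.57 ± 0.10 (SE of the log2 difference, limma adjusted p 8.81e-06), MMP3 by 0.80 ± 0.22 (adjusted p 0.033) and MMP14 by 0.42 ± 0.08 (adjusted p 0.00447), and the MMP2 change was smaller in MV3, with a difference of -2.80 ± 0.13 (adjusted p 1.47e-06). The difference for MMP3 passed the threshold in 7 of 14 other settings and was lost without siC replicate 1, 2 or 3 or siI1 replicate 1, with adjusted p up to 0.118. Between ES2 and PANC1, where 27.1% of all genes differed, MMP2 differed by -2.29 ± 0.17 (SE, limma adjusted p 1.53e-05), and MMP14 by -0.04 ± 0.17 (adjusted p 0.89). Between MV3 and PANC1, where 24.2% of all genes differed, the MMP2 effect was higher in PANC1 by 0.51 ± 0.15 (SE, limma adjusted p 0.0342) and the MMP15 effect differed by -0.49 ± 0.14 (adjusted p 0.0273). The first passed in 7 of 14 other settings and the second in 7 of 13, and each was lost without most of the replicates, with adjusted p up to 0.114 for MMP2 and 0.0975 for MMP15. Under the same-sum scaling the MMP2 difference between MV3 and PANC1 turned to -0.20.

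The remaining MMPs were mostly silent. Of 17 other genes, 16 MMPs and TIMP4, 3 were tested in each line but MV3, where 2 were. Over all genes, 7.83% were called lower and 5.93% higher in A549, and 13.0% and 10.5% in ES2. For MV3 the shares were 19.5% and 16.3%, and for PANC1 13.4% and 11.3%. MMP24, a membrane-bound MMP, rose in A549 by a log2 fold change of 0.55 (limma adjusted p 0.00633). MMP17, which is held to the membrane by a lipid anchor, rose in PANC1 (0.97, adjusted p 0.00165, and 0.28 under the same-sum scaling) and in MV3 (0.20, adjusted p 0.0291, lost without any of MV3 siC replicate 1, 2 or 3 or siI1 replicate 2 or 3). None of the tested genes of this list passed the threshold as lower. All siI1 libraries were below all siC libraries for MMP16 in MV3 (-0.17, limma adjusted p 0.0663) and ES2 (-0.25, adjusted p 0.0881). The same held for TIMP4 in A549 (-0.27, adjusted p 0.162).

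Among genes that activate MMPs or hold them at the cell surface, FURIN, the proprotein convertase that removes the propeptide of membrane-bound MMPs, fell in each line. Of 13 such genes, 2 of 10 tested fell and 2 rose in A549, 1 of 8 fell and 2 rose in ES2, 2 of 8 fell and 4 rose in MV3, and 2 of 8 fell and 2 rose in PANC1. Over all genes tested, 7.83% were called lower and 5.93% higher in A549, and 13.0% and 10.5% in ES2. These shares were 19.5% and 16.3% in MV3, and 13.4% and 11.3% in PANC1. The PANC1 rises were BSG and CD63, and under the same-sum scaling both passed as lower, with log2 fold changes of -0.40 (limma adjusted p 0.0242) and -0.47 (adjusted p 0.0167). FURIN had log2 fold changes of -0.81 in A549 (limma adjusted p 0.00129), -0.60 in PANC1 (0.00215), -0.49 in MV3 (0.00101) and -0.28 in ES2 (0.0199), and the ES2 call was lost without ES2 siC replicate 2 or 3 or siI1 replicate 1 or 2 (adjusted p up to 0.0627). RECK, a membrane-anchored inhibitor of MMPs, rose in A549 (0.72, adjusted p 0.0109) and MV3 (0.84, adjusted p 0.00167), and had 0.42 in ES2 (adjusted p 0.197) and 0.35 in PANC1 (adjusted p 0.0543). LRP1, an endocytic receptor that clears MMPs and their inhibitors, rose in ES2 (1.18) and MV3 (0.80), and THBS1, which binds MMP2, fell in A549 (-0.88) and rose in ES2 (1.26) and MV3 (0.25).

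Sheddases and aggrecanases, related proteases of which TIMP3 can block some, ADAM17 among them, held several rises. Of 11 genes, 0 of 8 tested fell and 4 rose in A549, 1 of 7 fell and 5 rose in ES2, 1 of 8 fell and 4 rose in MV3, and 1 of 6 fell and 2 rose in PANC1. Among all genes tested, 7.83% were called lower and 5.93% higher in A549, and 13.0% and 10.5% in ES2. In MV3 the shares were 19.5% and 16.3%, and in PANC1 13.4% and 11.3%. ADAM17, which releases TNF and EGFR ligands, rose in ES2 (log2 fold change 0.87), A549 (0.79), PANC1 (0.58) and MV3 (0.25), and ADAM19 in ES2 (1.32), PANC1 (0.72), MV3 (0.63) and A549 (0.48). ADAM12 rose in the 3 lines in which it was tested, by 1.31 in A549, 1.31 in ES2 and 0.82 in MV3. ADAM10 rose in ES2 (0.31) and fell in PANC1 (-0.59), and ADAMTS1 fell in ES2 (-0.52) and MV3 (-0.46). In PANC1 under the same-sum scaling ADAM17 stood at -0.16 and ADAM19 at 0.11, neither past the threshold.

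Transcription factors that bind MMP promoters, the AP-1 and ETS families with RUNX2, were followed in the same libraries. Of 13 genes, 3 of 12 tested fell and 2 rose in A549, 5 of 12 fell and 0 rose in ES2, 8 of 12 fell and 0 rose in MV3, and 2 of 11 fell and 4 rose in PANC1. Of all genes tested, 7.83% were called lower and 5.93% higher in A549, and 13.0% and 10.5% in ES2. The shares were 19.5% and 16.3% in MV3, and 13.4% and 11.3% in PANC1. FOSL1 fell in ES2 (-0.51, limma adjusted p 0.00354), MV3 (-0.73, adjusted p 0.000486) and PANC1 (-0.47, adjusted p 0.00254), and had 0.29 in A549 (adjusted p 0.103). ETS2 fell in A549 (-0.93), ES2 (-1.34) and MV3 (-0.20), and ETV4 in ES2 (-1.14) and MV3 (-0.41). In MV3 the ETS2 call was lost without any of siC replicate 1, 2 or 3 or siI1 replicate 2 or 3, and the ETV4 call without siI1 replicate 1 or 3. The counts also hold ETV1 in MV3 (-0.16), whose call was lost in 6 of 6 fits with 1 library left out. Those of FOSL2 in ES2 (-0.29) and PANC1 (0.32) were lost in 3 and 5 of 6, and that of ETS1 in PANC1 (-0.38) in 1 of 6. RUNX2, a runt-domain factor, gave a rise in A549 (0.71, adjusted p 0.0359), and its call was lost whichever A549 library was left out (adjusted p up to 0.114). JUN rose in A549 (0.65) and PANC1 (1.02), whereas JUNB and JUND fell in A549 (-0.56 and -0.66) and rose in PANC1 (0.67 and 0.85). In PANC1 under the same-sum scaling JUNB turned to -0.07, and JUN and JUND, at 0.28 and 0.12, no longer passed.

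**Figure D4:**
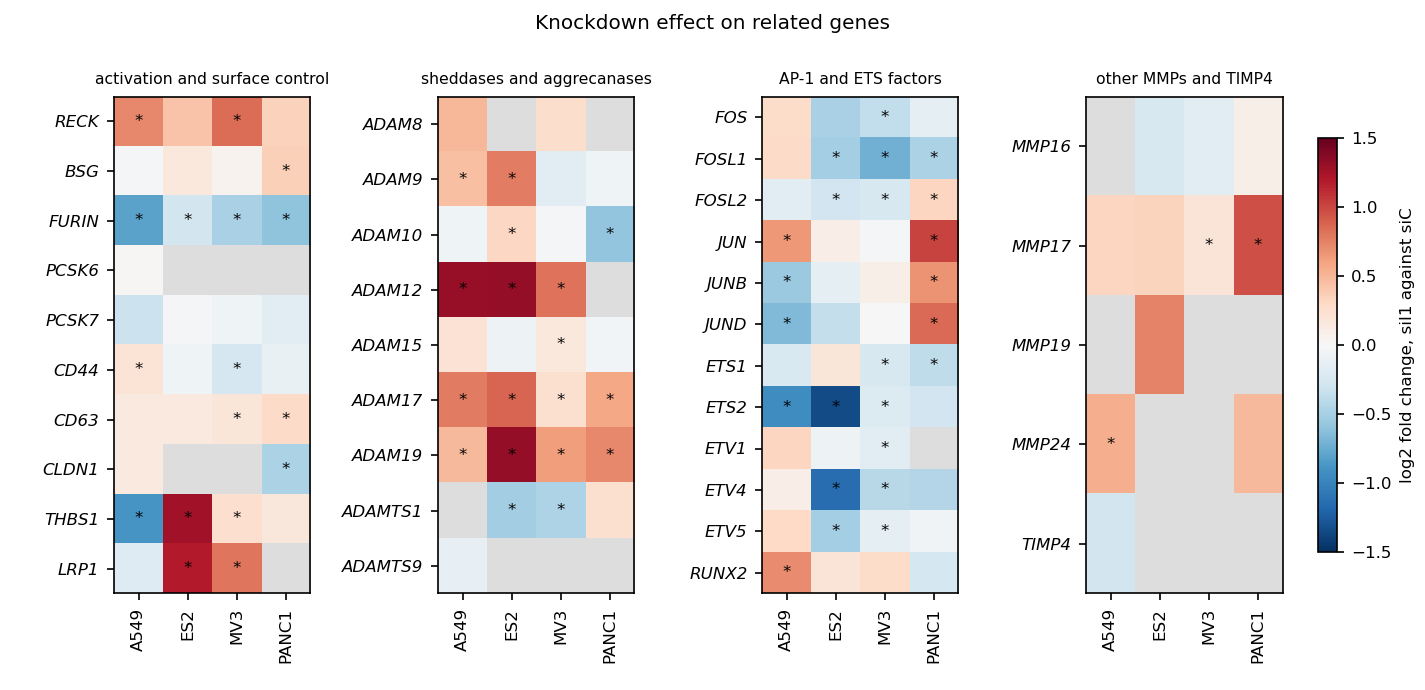
Log2 fold change, siI1 against siC, of the tested genes of 4 lists in each line, from blue (lower) to red (higher), with a star at an adjusted p under 0.05 and gray where a gene was not tested. FURIN was blue with a star and ADAM17 and ADAM19 red with a star in all 4 lines, and in PANC1 under the same-sum scaling ADAM17 stood at -0.16 and ADAM19 at 0.11.

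Over the 24 libraries, the protein-coding genes whose log2(FPKM + 0.5) was most like that of MMP1, of 12232 compared, were TIE1 and GPSM3 (Pearson r 0.982 each) and TACC3 (0.981). For TIMP3 they were MAGEC1, TENM2 and CDH12 (0.999 each). These values are a description: the libraries of a line share its identity, and both MMP1 and TIMP3 were far higher in FPKM in ES2 than in the other lines.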

How the data were processed

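Per the methods and the submitters' processing notes, the authors trimmed reads in Cutadapt 1.14, mapped them to hg38 by HISAT2 2.1.0, counted them per gene with featureCounts 1.5.3 and an Ensembl annotation, and normalised by TMM in edgeR 3.30.3. The authors deposited 1 table per line with FPKM values. The unit, not named there, was read from the values: FPKM times gene length was a whole multiple of 1 step per library for 100.0% of values (tolerance 0.001). The authors' deposited columns of log2 fold change, p-value and FDR per gene were not used. Here log2(FPKM + 0.5), which understates changes of low genes, was tested per line with limma 3.58.1 in R 4.3.3 (intensity trend, two-sided, no covariates) over genes averaging 0.5 FPKM or more, and p-values were adjusted by Benjamini-Hochberg across the genes of the line. The authors tested with edgeR, which needs counts, so limma stands in for it. Replicates, biological per the methods, differed beyond sampling noise (chi-square per gene 1.54 to 15.1 over 24 pairs), and no culture was identified by the labels. Samples were grouped by their titles. The members, the named genes and the lists (activation and surface control, sheddases and aggrecanases, AP-1 and ETS factors, other MMPs and TIMP4) were chosen with earlier results of these data known. The genes named were the 10 members, IGF2BP1 and list genes past the threshold, with the 3 genes most like MMP1 and TIMP3. Alternatives were pseudocounts of 0.1 and 1, no minimum or 1 FPKM, 2 scalings, voom on the recovered reads, a replicate block and leaving out each library. The fits were tested on simulated data.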

Additional observations from a re-analysis of the deposited data

Results flagged for a closer look

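Differences of the knockdown effect between lines, each tested with limma interaction terms, were found for 6 members. Of all genes tested, 45.0% differed over the 4 lines, and 14.0% to 27.1% differed between pairs of lines. Over the 4 lines, TIMP2 differed with an adjusted p of 0.00127, as did IGF2BP1 itself with an adjusted p of 9.77e-05, so the depletion of the target was not equal in all lines. For TIMP2 the log2 fold change was higher than in A549 by 0.80 in ES2, by 0.54 in MV3 and by 0.73 in PANC1. Between ES2 and MV3 the difference, MV3 minus ES2, was 1.57 for MMP1, -2.80 for MMP2, 0.80 for MMP3 and 0.42 for MMP14. The difference PANC1 minus ES2 was -2.29 for MMP2. The difference PANC1 minus MV3 was 0.51 for MMP2 and -0.49 for MMP15, which passed in only 7 of 14 and 7 of 13 other settings. The MMP3 difference between ES2 and MV3 passed in 7 of 14, and the TIMP2 difference between A549 and PANC1 in 9 of 14. Pairs of lines share libraries, and harvest was at 96 h in PANC1 against 72 h in the other lines, so that line and time cannot be told apart there.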

How the results depend on the processing

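The calls of MMP1, MMP2, MMP3, MMP14 and TIMP2 in ES2 and of MMP3, MMP14 and TIMP2 in MV3 held in each of the 14 other settings. Counts of members moved elsewhere. With voom on recovered reads, 2 members were lower and 1 higher in A549, and 2 higher in MV3. With a mean of at least 1 FPKM, 2 were higher in MV3. With no minimum, 1 was higher in PANC1 and 2 lower in MV3. Scaling to the same sum gave 2 lower and 2 higher in MV3, and 2 lower and 0 higher in PANC1, and lowered the TIMP1 adjusted p over the 4 lines to 0.029. Leaving out 1 library gave 0 to 1 lower in A549, 2 to 3 lower (2 in 4 of 6 fits) and 1 to 2 higher in MV3, and 0 to 1 lower and 0 to 2 higher in PANC1. Replicate numbers did not pair the samples (correlations of same-numbered deviations from -0.056 to 0.071, and 3 of 12 pairs matched best with their own number). With the replicate block 0 members were lower in A549, where MMP7 had an adjusted p of 0.0661, and no other count of members changed. Signs reversed under the same-sum scaling in PANC1 for MMP2 (-0.18), TIMP1 (-0.49), TIMP2 (-0.035), BSG (-0.40) and CD63 (-0.47), which both passed as lower, ADAM17 (-0.16), FOSL2 (-0.39) and JUNB (-0.067), and for MMP2 in PANC1 minus MV3 (-0.20). MMP2 in MV3 ranged from -0.008 (without siC replicate 3) to 0.090 when 1 library was left out. The MMP14 difference PANC1 minus ES2 turned to 0.04 with a pseudocount of 1, and ranged from -0.153 to 0.062 when 1 replicate was left out. The cause was not tested. With 3 libraries per group and few reads in A549, members below 0.5 FPKM were not tested.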
